A study of Mus musculus with 9 samples.

Results

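The genes described here are 39 that carry out or control the breakdown of fatty acids. They hold the enzymes of mitochondrial and peroxisomal β-oxidation, the carnitine shuttle, acyl-CoA thioesterases, and targets of the nuclear receptor PPARα. They were taken by symbol from the 23282 symbols of each kidney expression table, and all 39 were found once in each of the 9 libraries. All 39 also passed the filter on low values, and 13481 symbols in all were tested. The study compared kidney RNA of C57BL/6 mice of 2 genotypes by 3′ mRNA sequencing, with 4 libraries labelled wild type and 5 labelled Bmal1 -/-. Bmal1 (gene symbol Arntl) encodes the clock transcription factor that pairs with Clock. The labels used here name no promoter or Cre, no age, no sex and no hour of sampling, and all 9 libraries share the strain. Nothing in them ties a library to its own animal, so the spread behind each p-value may be technical.

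β-oxidation removes acetyl units from fatty acids in repeated rounds. Long chains enter mitochondria bound to carnitine, while very long and branched chains are first shortened in peroxisomes, whose products then pass to mitochondria. PPARα, activated by fatty acids, switches on genes of both compartments, above all in fasting. In the kidney, the proximal tubule relies on this pathway for most of its energy.

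All values are log2(x + 1), where x is the read count of a gene after the authors adjusted libraries towards a common size. A difference of 1 on this scale is a 2-fold change. Totals of x were 11765219 to 13486444 per library, and the raw depth is unknown. Genotypes were compared with limma over all 13481 tested genes, and a gene was called at a Benjamini-Hochberg adjusted p under 0.05. Arntl was at 6.68, 6.26, 7.06 and 6.76 in wild type and at 5.95, 5.65, 5.99, 5.80 and 5.86 in knockout (difference -0.84, SE 0.21, limma adjusted p = 0.0112). A 3′ tag can lie outside the deleted part, so these values do not check the genotype labels. Defining transcripts of the proximal tubule were present in all libraries, with the phosphate transporter Slc34a1 at 14.6 to 15.2. The ribosomal RNA precursor Rn45s took 5.07% to 11.3% of x in wild type and 6.83% to 14.4% in knockout.

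Of the 39 genes, 18 were lower in knockout, 1 was higher and 20 were not called. Over all tested genes, 8.2% were called lower and 6.16% higher. The median difference of the 39 genes was -0.34, against 0.0002 for all tested genes. The differences ran from -1.26 for Ehhadh to 0.43 for Acot3, and 28 of 39 were below 0. In 16 of the 18 called lower, the highest knockout was under the lowest wild type; the exceptions were Ehhadh and Etfdh. Hsd17b4 was separated in the same way without being called, which makes 17, against 8.46% of all tested genes. In bulk tissue, fewer cells of a type and less RNA per cell cannot be told apart. Among 26 markers of proximal tubule cells, 10 fell and 16 were not called, with a median of -0.36, and their summed x was 355000 to 428000 in wild type and 264000 to 358000 in knockout. Of 12 markers of the thick limb and distal nephron 8 rose (median 0.48), as did 6 of 7 urothelial (median 2.01) and 3 of 8 endothelial markers (median 0.33). Of 10 male-biased kidney genes 9 fell (median -2.03), and all 10 lay lower in every knockout than in any wild type. Of 8 macrophage markers 1 fell (median -0.05), and of 8 hepatocyte markers 2 rose and 1 fell (median 0.02). The labels give no sex, but Y-linked transcripts were present in all 9 libraries: Ddx3y was at 10.15 to 10.49 in wild type and 10.22 to 10.54 in knockout. Xist, the RNA of the inactive X chromosome in females, was at 1.76 to 3.22 in wild type and 0 to 2.01 in knockout. The part of these shifts in the results for fatty acid oxidation was not tested.

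**Figure D1:**
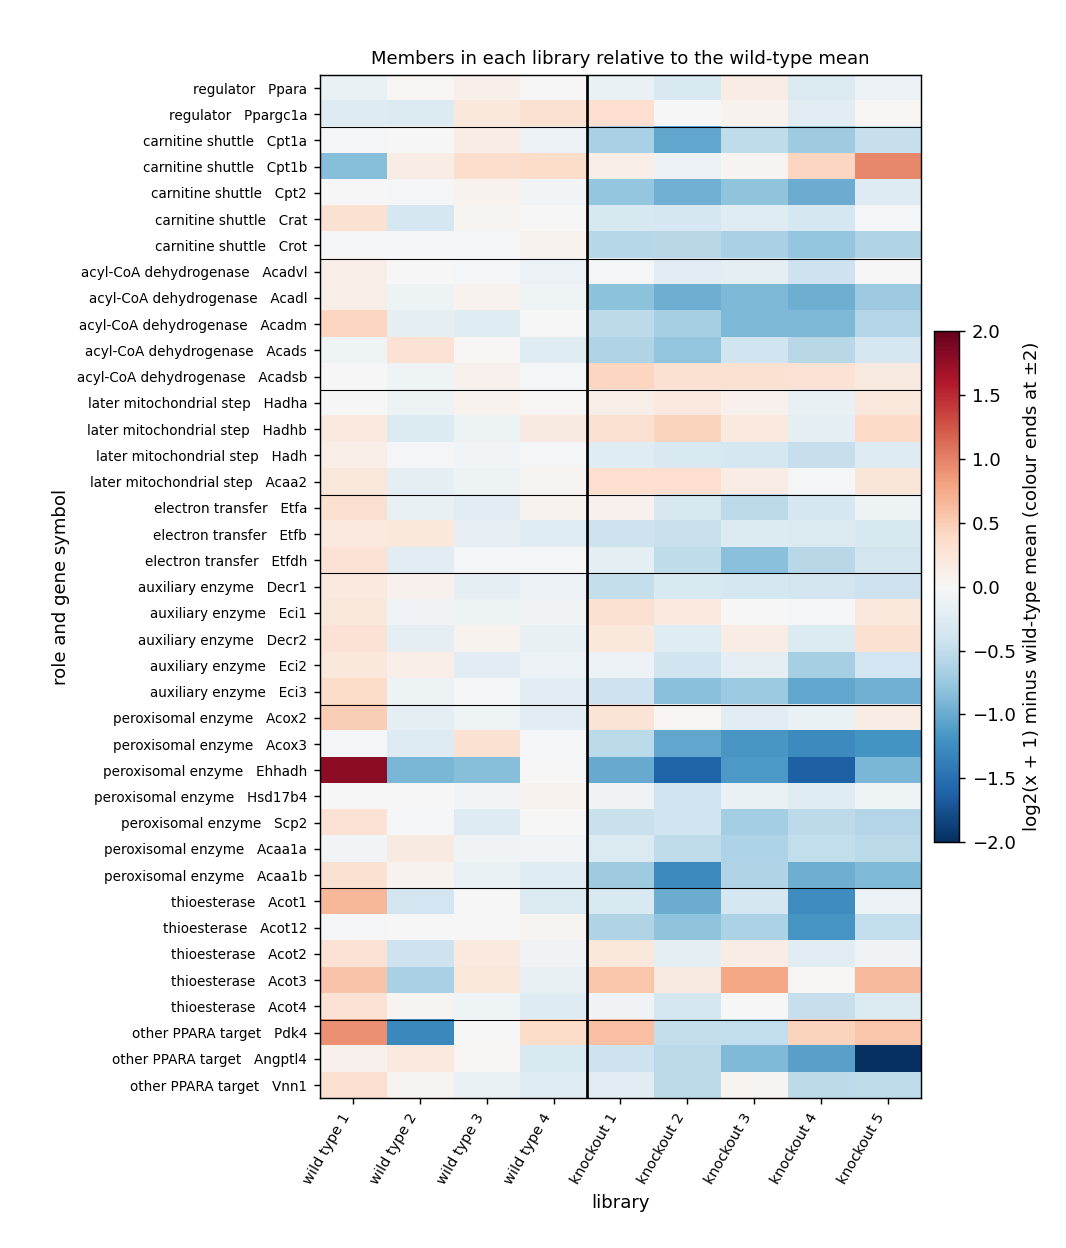
Each row is a gene, ordered by role, and each column a library; the colour is log2(x + 1) minus the mean of the 4 wild-type libraries of that gene, with the colour scale ending at ±2. Blue runs across all 5 knockouts for Cpt1a, Acadl, Acadm, Acox3, Acaa1b and Acot12, while Hadha, Hadhb and Acaa2 stay near white or red, and Ehhadh is dark red in wild type 1 at 10.86.

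Promoter sequences were available in the RefSeq table of GRCm38.p6 for 32 of the 39 genes, in 34 windows. The 250 bases before the start were searched on both strands for the nuclear receptor half-site AGGTCA, the E-box CACGTG bound by Bmal1 with Clock, and AGGTCANAGGTCA, the spaced repeat of the half-site on which PPARα sits with RXR. The half-site was in 6 of the 34 windows, those of Acadm, Acadvl, Acot12, Acot4, Cpt1a and Scp2, against 14% of all 32851 windows. The E-box was in the window of Acot4 only, against 6.02% of all windows, and the exact repeat was in none of the 34 windows, against 0.0335% of all. Matches are letters in a window and not shown to be sites. Of the 6 genes with the half-site, Acadm, Acot12, Cpt1a and Scp2 fell, and Acadvl and Acot4 were not called. As examples, 3 of the windows are printed, 5′ to 3′ along the gene, with matches in capitals. These 3 hold no annotated exons, and the other windows were not checked for exons. Acadl is the gene with the smallest p and has no match. Acadm fell and has the half-site, read on the other strand. Acot4 is the gene with the E-box and was not called.
Acadl, chr1:66863310-66863559, - strand: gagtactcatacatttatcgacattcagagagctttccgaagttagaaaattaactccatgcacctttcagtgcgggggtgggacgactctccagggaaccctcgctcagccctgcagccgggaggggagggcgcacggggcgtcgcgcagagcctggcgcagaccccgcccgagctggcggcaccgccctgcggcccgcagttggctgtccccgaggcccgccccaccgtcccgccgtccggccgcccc
Acadm, chr3:153944644-153944893, - strand: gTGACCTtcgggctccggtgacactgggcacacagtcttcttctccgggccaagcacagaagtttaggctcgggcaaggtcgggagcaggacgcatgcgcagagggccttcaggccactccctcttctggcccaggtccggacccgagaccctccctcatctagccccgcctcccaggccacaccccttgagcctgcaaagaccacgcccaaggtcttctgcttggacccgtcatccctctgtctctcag
Acot4, chr12:84038129-84038378, + strand: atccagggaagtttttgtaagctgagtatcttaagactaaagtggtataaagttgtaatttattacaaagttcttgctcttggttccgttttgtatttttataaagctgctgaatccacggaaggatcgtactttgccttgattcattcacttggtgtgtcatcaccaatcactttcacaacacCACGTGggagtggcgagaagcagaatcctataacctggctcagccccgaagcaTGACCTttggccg

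Neither of the 2 regulators was called. Ppara, which encodes PPARα, was at 10.75, 10.92, 10.98 and 10.88 in wild type and at 10.75, 10.58, 11.03, 10.61 and 10.76 in knockout. The groups overlapped, and the difference was -0.14 (SE 0.11, limma adjusted p = 0.446). Ppargc1a, the coactivator that drives mitochondrial genes with PPARα, was at 10.29 to 10.86 in wild type and 10.34 to 10.89 in knockout, a difference of 0.05 (SE 0.14).

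Of the 5 enzymes of the carnitine shuttle 3 fell. Cpt1a, which attaches long chains to carnitine at the outer mitochondrial membrane and is the controlled entry step, was at 11.28, 11.29, 11.45 and 11.18 in wild type. Its knockout values were 10.66, 10.27, 10.79, 10.60 and 10.84, all below the lowest wild type. Cpt1a (chromosome 19, 3322334 to 3385733, + strand, GRCm38) thus fell by 37.2% (log2 difference -0.67, SE 0.12, limma adjusted p = 0.000632). Cpt2 takes the carnitine off again inside the mitochondrion. It was at 10.25, 10.21, 10.30 and 10.18 in wild type and at 9.45, 9.26, 9.43, 9.24 and 9.97 in knockout. The wild types lay close together, and knockout 5 stood above the other knockouts but below every wild type (difference -0.76, SE 0.13, limma adjusted p = 0.000689). Crot, the peroxisomal enzyme that hands medium chains to carnitine, was at 11.89, 11.88, 11.89 and 11.98 in wild type and at 11.34, 11.36, 11.27, 11.14 and 11.30 in knockout (difference -0.63, SE 0.09, limma adjusted p = 0.000113). Both groups were tight and separate.

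The other shuttle enzymes were not called. Crat, which handles short chains, was at 8.55 to 9.20 in wild type and 8.54 to 8.88 in knockout (difference -0.26, SE 0.14). Cpt1b, the muscle and brown fat form of the entry enzyme, was at 5.71, 6.72, 6.91 and 6.93 in wild type and at 6.70, 6.45, 6.62, 6.999 and 7.52 in knockout (difference 0.29, SE 0.26, limma adjusted p = 0.521). The highest Cpt1b was in knockout 5 and the lowest in wild type 1. The last 500 bases of Cpt1b lie whole within the transcript of the overlapping gene Gm44502, so reads of the pair cannot be told apart.

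Knockout 5 also stood apart in adipocyte markers. Ucp1, the uncoupling protein that defines brown fat, was at 0.59, 2.43, 0 and 0.20 in wild type and at 0, 7.003, 2.60, 2.25 and 10.29 in knockout. Adipoq, the fat hormone adiponectin, was at 0 to 2.69 in wild type and at 0, 6.44, 2.82, 4.69 and 9.06 in knockout. The summed x of 10 adipocyte markers was 1200 to 2600 in wild type and 1670 to 12500 in knockout, and 3 of the 10 passed the filter on low values, none of them called. Fabp4 and Cfd, the most abundant of these, were at 13.002 and 9.81 in knockout 5. In wild type Fabp4 was at 10.23 to 11.33 and made up nearly all of the sum, while Cfd was at 0 to 3.42. In knockouts 1 to 4 Cfd was at 0, 6.14, 5.095 and 4.697. Striated muscle markers were near the floor, with a summed x of 31.3 to 110 in wild type and 40.2 to 67.9 in knockout. Without knockout 5 the count of fatty acid oxidation genes called lower was 18, and without knockouts 2 and 5 together, an alternative chosen after the data were seen, it was 13. Knockouts 3 and 4, where Adipoq and Cfd also lay above every wild type, stayed in that fit.

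**Figure D2:**
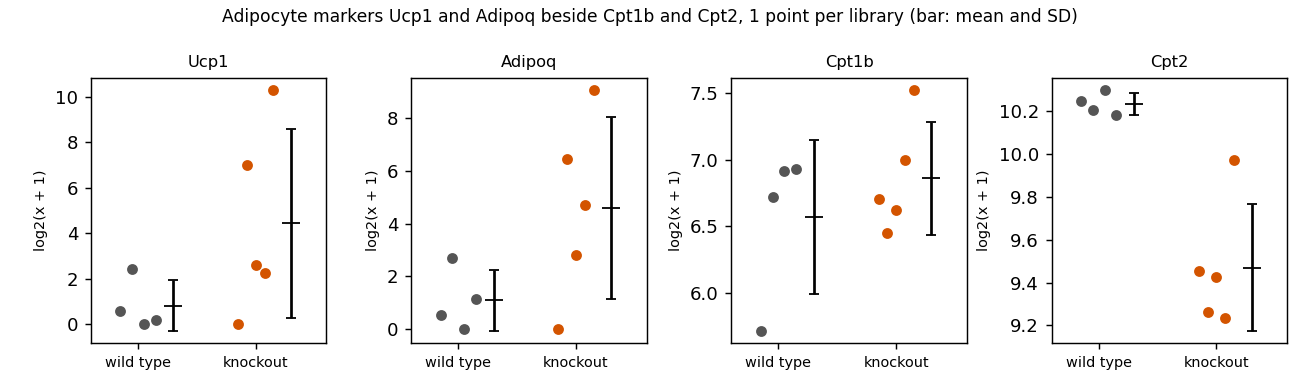
Each panel plots log2(x + 1) of a gene against genotype, 1 point per library in order of label number, with the mean and SD as a bar. Ucp1 and Adipoq are highest in knockout 5, at 10.29 and 9.06, and the same library is the highest knockout for Cpt1b and Cpt2.

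The acyl-CoA dehydrogenases start each round of mitochondrial β-oxidation, each on its own range of chain lengths. Of the 5, 3 fell, 1 rose and 1 was not called. Acadl, for long chains, had the smallest p of all 39 genes. It was at 12.27, 12.04, 12.21 and 12.07 in wild type and at 11.32, 11.17, 11.25, 11.17 and 11.43 in knockout. The groups were well separated, and Acadl (chromosome 1, 66830839 to 66863277, - strand, GRCm38) fell by 45.6% (log2 difference -0.88, SE 0.10, limma adjusted p = 5.52e-06). Acadm, the medium-chain enzyme whose loss causes a common human disorder of fasting, was at 13.81, 13.19, 13.14 and 13.38 in wild type and at 12.86, 12.72, 12.48, 12.48 and 12.79 in knockout. Wild type 1 was the highest library, and no groups overlapped (difference -0.71, SE 0.14, limma adjusted p = 0.00148). Acads, for short chains, was at 11.40, 11.77, 11.51 and 11.24 in wild type and at 10.88, 10.70, 11.08, 10.93 and 11.14 in knockout (difference -0.53, SE 0.12, limma adjusted p = 0.00529). These groups were separate by a narrow gap.

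Acadvl, the membrane-bound enzyme for very long chains, was at 11.25, 11.13, 11.09 and 11.01 in wild type and at 11.08, 10.91, 10.94, 10.70 and 11.13 in knockout. The groups overlapped (difference -0.17, SE 0.11, limma adjusted p = 0.325). Acadsb acts on short branched chains from the breakdown of isoleucine, and it was the single gene called higher. It was at 10.86, 10.78, 10.94 and 10.83 in wild type and at 11.28, 11.15, 11.16, 11.14 and 11.03 in knockout (difference 0.30, SE 0.09, limma adjusted p = 0.0364). All knockouts lay above all wild types. Its call was lost on leaving out any library other than wild type 3 or knockout 5 (adjusted p 0.0641 to 0.0889).

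**Figure D3:**
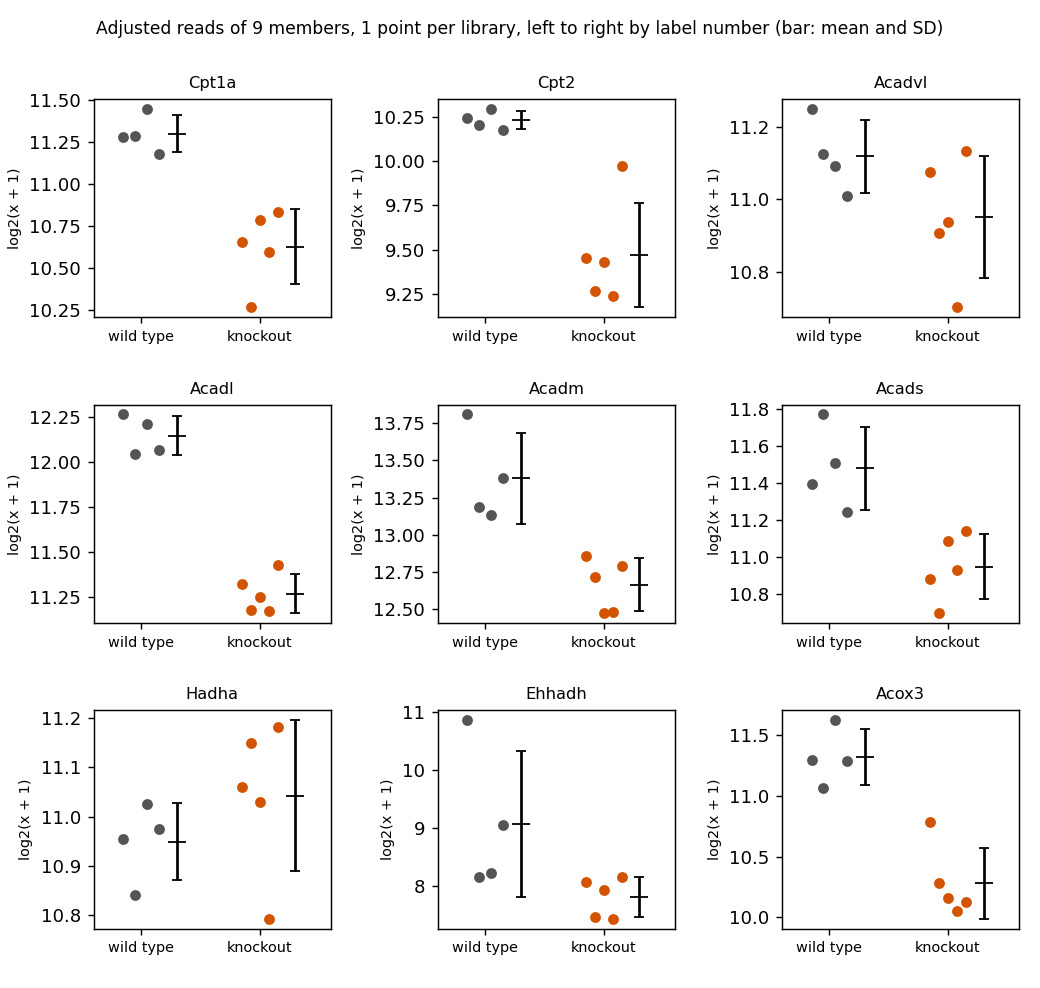
Each panel plots log2(x + 1) of a gene against genotype, 1 point per library in order of label number, with the mean and SD as a bar. Acadl, Cpt1a and Acox3 show gaps between genotypes, Hadha and Acadvl overlap, and the wild-type spread of Ehhadh is set by wild type 1.

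Of the 4 genes of later mitochondrial steps 1 fell and 3 were not called. Hadha and Hadhb encode the 2 subunits of the trifunctional protein, which completes the round for long chains on the inner membrane. Hadha was at 10.96, 10.84, 11.03 and 10.98 in wild type and at 11.06, 11.15, 11.03, 10.79 and 11.18 in knockout (difference 0.09, SE 0.10, limma adjusted p = 0.597). Hadhb was at 9.501 to 9.96 in wild type and 9.599 to 10.21 in knockout (difference 0.23, SE 0.13). Both pairs of groups overlapped. The start sites of Hadha and Hadhb in the promoter table lie head to head on chromosome 5, 273 bases apart. Acaa2, the mitochondrial thiolase, was at 11.32 to 11.71 in wild type and 11.47 to 11.83 in knockout (difference 0.21, SE 0.11), without a call. Hadh, the dehydrogenase for medium and short chains, was called lower. Its values were 13.26, 13.10, 13.08 and 13.09 in wild type, and in the knockouts 12.90, 12.83, 12.79, 12.66 and 12.87 (difference -0.32, SE 0.10, limma adjusted p = 0.0338). The groups were separate. However, the call was lost on leaving out any of wild types 1, 3 and 4 or knockouts 2, 3 and 4 (0.0502 to 0.0995). With quantile normalization the difference was -0.17 (adjusted p = 0.213). Scaling to the library total (0.118), the total without Rn45s (0.136) or the upper quartile (0.103) also lost the call. So did Rn45s as a covariate (0.089), no variance trend (0.0672) and no filter on low values (0.0605).

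The electron transfer genes carry electrons from the dehydrogenases to the respiratory chain. Etfdh, which passes them to ubiquinone, was at 10.35, 9.83, 10.03 and 10.04 in wild type and at 9.86, 9.56, 9.23, 9.51 and 9.70 in knockout (difference -0.49, SE 0.13, limma adjusted p = 0.0187). Knockout 1 lay just above wild type 2. Etfb, a subunit of the flavoprotein, was at 13.23, 13.24, 12.87 and 12.80 in wild type and at 12.62, 12.58, 12.76, 12.75 and 12.72 in knockout (difference -0.35, SE 0.11, limma adjusted p = 0.0477). On leaving out 1 library, Etfb kept its call without wild type 3 or wild type 4 and lost it without each of the others (adjusted p 0.0705 to 0.146). It also lost it with quantile normalization (difference -0.22, adjusted p = 0.191), with scaling to the library total (0.1), the total without Rn45s (0.151) or the upper quartile (0.138), with no filter on low values (0.0817) and without the variance trend (0.113). Etfdh lost its call without wild type 1 (adjusted p = 0.0727) or knockout 3 (0.0551), with Rn45s as a covariate (difference -0.33, adjusted p = 0.101), with scaling to the library total (0.0582) or the total without Rn45s (0.0555), and without the variance trend (0.0769). Etfa, the other subunit, was not called (difference -0.25, SE 0.13). A large part of the 3′ end of Etfb, 48.8% of the 50-base words in its last 500 bases, is shared with the overlapping gene Gm45233.

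Unsaturated fatty acids need auxiliary enzymes that move or remove double bonds. Decr1, the mitochondrial dienoyl-CoA reductase, was at 11.50, 11.39, 11.13 and 11.18 in wild type and at 10.83, 11, 10.95, 10.93 and 10.89 in knockout (difference -0.38, SE 0.10, limma adjusted p = 0.0163). The groups were separate, but the call was lost without wild type 1 (adjusted p = 0.0616), with quantile normalization (difference -0.24, adjusted p = 0.119), with scaling to the upper quartile (0.0588) or the total without Rn45s (0.0696), and without the variance trend (0.0577). Its peroxisomal counterpart Decr2 was at 10.60 to 11.07 in wild type and 10.52 to 11.10 in knockout, a difference of 0.03 (SE 0.14). Among the isomerases, mitochondrial Eci1 had 0.14 (SE 0.11) and peroxisomal Eci2 had -0.35 (SE 0.13, limma adjusted p = 0.0734). Eci3, a close relative of Eci2, fell by 42.6%. It was at 12.03, 11.56, 11.63 and 11.44 in wild type and at 11.25, 10.83, 10.92, 10.62 and 10.70 in knockout (log2 difference -0.80, SE 0.14, limma adjusted p = 0.000522). Every knockout was below every wild type.

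Of the 7 peroxisomal enzymes of the main pathway 5 fell and none rose. Acox3, an oxidase of branched chains, was at 11.30, 11.07, 11.63 and 11.29 in wild type and at 10.78, 10.29, 10.16, 10.05 and 10.12 in knockout. Knockout 1 was the highest knockout and still below all wild types, and Acox3 (chromosome 5, 35583040 to 35615352, + strand, GRCm38) fell by 51.3% (log2 difference -1.04, SE 0.14, limma adjusted p = 6.79e-05). Acox2, the oxidase of bile acid precursors and branched chains, was at 8.87 to 9.59 in wild type and 8.87 to 9.37 in knockout (difference 0.02, SE 0.15). Hsd17b4, the bifunctional enzyme that acts on branched chains, was at 10.38 to 10.51 in wild type and 10.05 to 10.38 in knockout (difference -0.19, SE 0.10), without a call.

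Ehhadh, the bifunctional enzyme of straight chains and a classical PPARα target, spread widely in wild type, at 10.86, 8.15, 8.22 and 9.06. The knockouts were at 8.07, 7.46, 7.93, 7.43 and 8.15, and knockout 5 tied with wild type 2. The difference was -1.26 (SE 0.38, limma adjusted p = 0.0330). Without wild type 1 it was -0.67 (adjusted p = 0.061), and without wild type 4 or knockout 2, 3 or 4 the adjusted p was 0.0555 to 0.0838. With Rn45s as a covariate it was -0.78 (adjusted p = 0.194). The call was also lost with a robust variance prior in limma (adjusted p = 0.203), without the variance trend (0.147) and with no filter on low values (0.0656).

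The peroxisomal thiolases and Scp2, whose longer form is also a thiolase, were lower. Each gene has a single value per library, so the forms of Scp2 were not told apart. Acaa1b was at 11.93, 11.69, 11.50 and 11.39 in wild type and at 10.91, 10.36, 11.03, 10.65 and 10.75 in knockout (difference -0.89, SE 0.14, limma adjusted p = 0.000216). Acaa1a was at 10.18, 10.41, 10.17 and 10.19 in wild type and at 9.96, 9.74, 9.62, 9.74 and 9.71 in knockout (difference -0.49, SE 0.10, limma adjusted p = 0.00367). In both genes the groups were separate. They share 42.1% of the 50-base words in the last 500 bases of Acaa1a, so the split of reads between them is uncertain. Acaa1b also overlaps Dlec1, and Acaa1a overlaps Myd88, on the other strand. Scp2 was at 13.61, 13.30, 13.07 and 13.31 in wild type and at 12.88, 12.92, 12.64, 12.80 and 12.73 in knockout (difference -0.53, SE 0.11, limma adjusted p = 0.00418). The pseudogene Scp2-ps2 shares 73.2% of the words at its 3′ end, so some of its reads may have been counted elsewhere.

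Thioesterases release free fatty acids from CoA. Acot12, the cytosolic enzyme that acts on acetyl-CoA, was the 1 of 5 that fell. It was at 10.09, 10.12, 10.14 and 10.18 in wild type and at 9.53, 9.33, 9.49, 8.96 and 9.65 in knockout, with a tight wild-type group and a clear gap (difference -0.74, SE 0.13, limma adjusted p = 0.000584). Acot1, the cytosolic long-chain form, was at 10.04, 8.98, 9.37 and 9.08 in wild type and at 9.06, 8.37, 9.01, 8.13 and 9.25 in knockout (difference -0.60, SE 0.23, limma adjusted p = 0.0872). Mitochondrial Acot2 had -0.03 (SE 0.14), and peroxisomal Acot4 and Acot3 had -0.24 (SE 0.14) and 0.43 (SE 0.23). All of these groups overlapped.

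Of 3 further PPARα targets 1 fell. Angptl4, a secreted inhibitor of lipoprotein lipase, was at 7.91, 8.02, 7.86 and 7.51 in wild type and at 7.42, 7.29, 6.94, 6.74 and 5.67 in knockout (difference -1.01, SE 0.27, limma adjusted p = 0.0159). The lowest value was in knockout 5, and without that library the difference was -0.73. Pdk4, the kinase that shuts pyruvate out of oxidation in fasting, was at 6.37, 4.17, 5.46 and 5.82 in wild type and at 6.06, 4.98, 4.96, 5.90 and 6.01 in knockout (difference 0.13, SE 0.39). Vnn1, a pantetheinase, was at 9.70 to 10.25 in wild type and 9.42 to 9.99 in knockout (difference -0.34, SE 0.14, limma adjusted p = 0.115). Both overlapped.

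**Figure D4:**
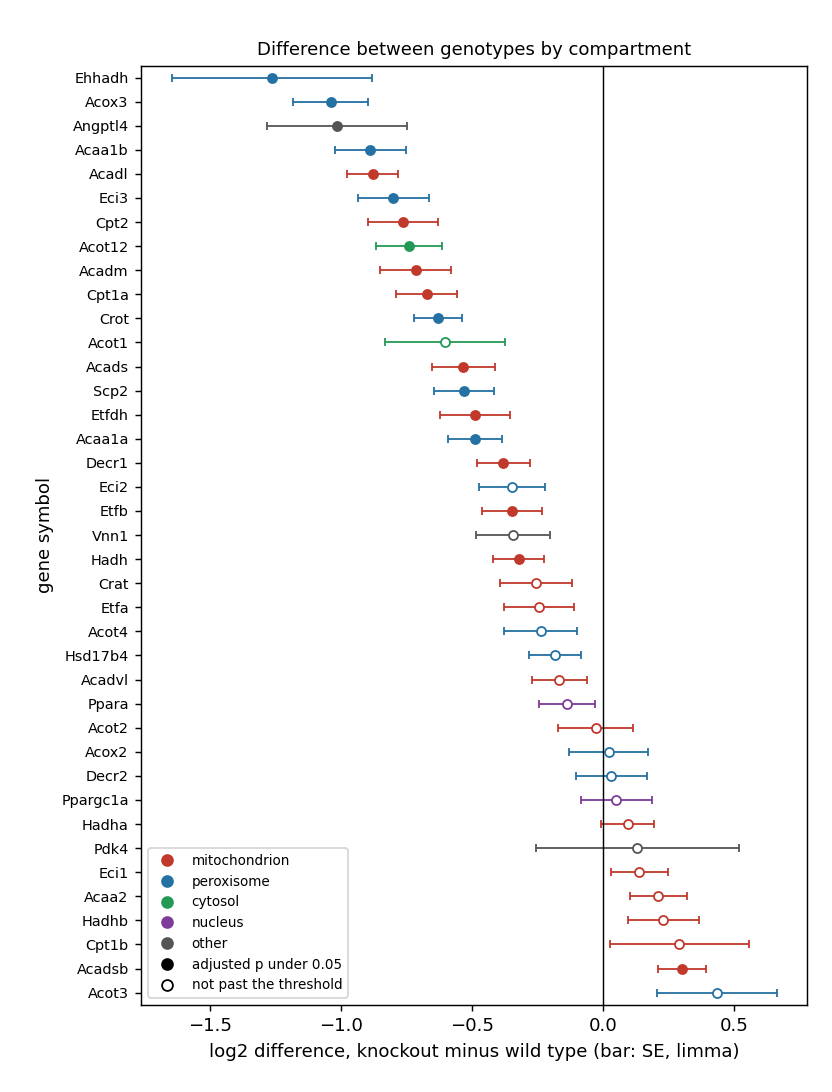
Each point is the log2 difference of a gene, knockout minus wild type, with its SE as a bar; colour gives the compartment, and filled points passed an adjusted p of 0.05. The 18 filled points on the left hold 9 mitochondrial and 7 peroxisomal genes, and Acadsb is the filled point on the right.

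By compartment, 9 of 19 mitochondrial genes fell and 1 rose, with a median of -0.26. Of 13 peroxisomal genes 7 fell and none rose, with a median of -0.49. Mitochondrial Hadh, Etfb, Etfdh, Decr1 and Acadsb and peroxisomal Ehhadh lost their calls in some of the alternatives given below, and the others kept theirs. Among mitochondrial enzymes with a defined chain length, 3 of 7 for long chains fell (Cpt1a, Cpt2 and Acadl), with a median of -0.17. Of 6 for medium and short chains 3 fell and 1 rose, with a median of -0.29. These classes were compared by counts and medians only. Enzymes of the same step were then compared within each library: the difference between 2 genes was taken in all 9 libraries and tested by exact permutation over the 126 splits into 4 and 5, two-sided, with adjustment over 11 pairs. The smallest possible p is 0.00794. Of the 11 pairs 4 passed.

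For chain length, the gap between Acadvl and Acadl was the clearest. Acadvl minus Acadl was -1.01, -0.92, -1.12 and -1.06 in wild type. In knockout it was -0.24, -0.27, -0.31, -0.47 and -0.29. The groups did not come near each other, and the change was 0.71 (SE 0.06, exact permutation p = 0.00794, adjusted p = 0.0291). The 2 enzymes of the longest chains thus changed unequally. Acadl minus Acadm changed by -0.17 (SE 0.15, exact permutation adjusted p = 0.34) and Acadm minus Acads by -0.18 (SE 0.26, exact permutation adjusted p = 0.515). Acadl and Acads were not compared with each other in this way.

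For compartment, 3 of 5 pairs passed, and in each the peroxisomal enzyme was lower in knockout relative to the mitochondrial. Acaa2 minus Acaa1a rose from 1.25 ± 0.26 (SD, n = 4) to 1.95 ± 0.15 (SD, n = 5; exact permutation adjusted p = 0.0291). Hadha minus Ehhadh rose from 1.88 ± 1.25 to 3.23 ± 0.29 (exact permutation adjusted p = 0.0291), with wild type 1 at 0.10 and the other wild types at 1.92 to 2.81. Eci1 minus Eci2 rose from 0.53 ± 0.14 to 1.02 ± 0.18 (exact permutation adjusted p = 0.0437). At their 3′ ends Eci2 shares 9.76% of the words with Eci3, and Eci1 shares 6.43% with other genes. The other pairs did not pass. Crat minus Crot changed by 0.37 (SE 0.15, exact permutation adjusted p = 0.0698), and Decr1 minus Decr2 went the other way by -0.41 (SE 0.18, exact permutation adjusted p = 0.137).

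Subunits and paralogs did not pass. Hadha minus Hadhb changed by -0.14 (SE 0.11, exact permutation adjusted p = 0.284), Etfa minus Etfb by 0.10 (SE 0.19, adjusted p = 0.595) and Acaa1a minus Acaa1b by 0.40 (SE 0.18, adjusted p = 0.116). On leaving out wild type 2 or any 1 knockout no pair passed. With 4 libraries against 4 the smallest possible p is 0.0286, and with 3 against 5 it is 0.0179, both before adjustment. After adjustment, 4 against 4 lets a pair pass only if most of the 11 pairs reach that smallest p. Without knockout 1, 2, 4 or 5 the 4 pairs that had passed were each at an exact permutation adjusted p of 0.0786. Without knockout 3 they were at 0.0629. Their changes kept the same sign, so these fits cannot show whether the pairs depend on 1 knockout.

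**Figure D5:**
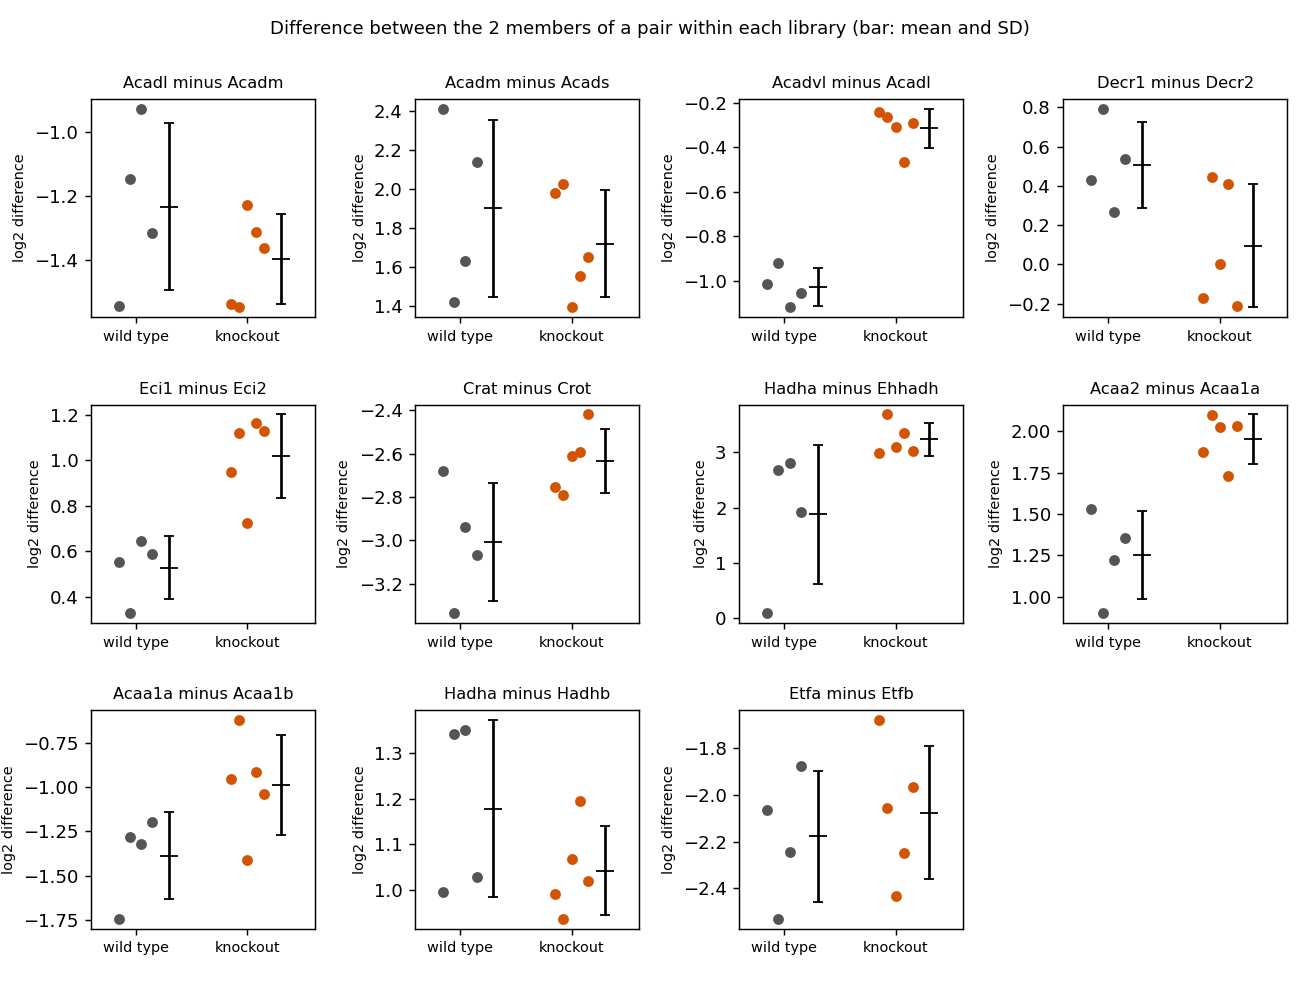
Each panel plots the difference in log2(x + 1) between the 2 genes named above it against genotype, 1 point per library in order of label number, with the mean and SD as a bar. Acadvl minus Acadl moves from -1.03 in wild type to -0.32 in knockout with no overlap, while Etfa minus Etfb and Acadl minus Acadm overlap.

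Libraries of the same genotype also differed over the 39 genes. Wild type 1 was the highest wild type for 24 of the 39, while over all tested genes it was highest in 25.1%. Knockout 4 was the lowest knockout for 22 of the 39, against 22.9% of tested genes, and the highest for 0. Wild type 1 had the lowest share of Rn45s, 5.07%, and knockout 4 the highest, 14.4%. Knockout 4 also had the highest share of globin, 3.56%. The part of these shares in the results was not tested. With Rn45s as a covariate 15 of the 39 genes were called lower and 2 higher, and their median was -0.26. In that fit 1356 of all tested genes were called, against 1937 without the covariate. Without wild type 1 the count called lower was 13 and the median -0.28.

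Other genes of the pathway were taken from a list of 53, of which 48 were tested. Of these 16 fell and 3 rose, with a median of -0.30. Nudt19, a peroxisomal CoA hydrolase, had the smallest p. It was at 13.49, 13.28, 13.51 and 13.69 in wild type and at 11.91, 12.16, 11.57, 11.65 and 11.63 in knockout (difference -1.71, SE 0.13, limma adjusted p = 4.19e-08). Amacr, the racemase that prepares branched chains for peroxisomal oxidation, fell by 1.18 (SE 0.11). Pecr, a peroxisomal reductase, fell by 0.73 (SE 0.11). These 3 lay lower in every knockout than in any wild type. The 3 that rose were the fatty acid ω-hydroxylase Cyp4a14 (3.07, SE 0.40), also a PPARα target, the lyase Hacl1 of peroxisomal α-oxidation (1.18, SE 0.17) and the receptor Ppard (0.90, SE 0.20). Known PPARα targets were thus found among genes that fell, rose and were not called. The authors' use of strand is not stated, so reads in exons that overlap a gene on the other strand cannot be assigned to one of the pair. Beside Acaa1a and Acaa1b this touched Acadvl (with Dvl2), Crat (Dolpp1 and Gm16323), Crot (Gm37153), Hadha (Garem2), Etfdh (4930579G24Rik), Eci2 (Gm16984), Eci3 (4933417A18Rik), Acot12 (4833422C13Rik), Acox3 (4931431C16Rik), and Acot3 and Acot4 (both 4732463B04Rik). Acot3 and Acot4 also share exons with Gm49366 on their own strand.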

How the data were processed

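Kidney RNA was profiled in 4 wild-type and 5 knockout libraries. Per the labels' protocols, libraries were built from 500 ng of RNA with a Lexogen QuantSeq kit, which reads near the 3′ end. Bowtie2, bedtools and the build mm10 are named in the submitters' processing notes; for annotation, strand and shared reads, the setting is not given in the sources used here. The deposited values are log2(x + 1) of reads brought by the authors to a similar library total, as the values show; they are not counts, so no count model was used.

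Groups came from the titles. Genes with x of at least 10 in at least 4 libraries entered limma 3.58.1 (R 4.3.3; variance trend, genotype as the single term, two-sided). Simulated data were used to check the fit. Gene positions came from GENCODE M21 (GRCm38, the assembly of mm10). All 39 genes are named; of the list of other pathway genes, up to 4 per direction with the smallest p, of which 1 is not reported here; of marker lists, the most abundant. Ucp1, Adipoq, Ddx3y, Xist and muscle sums were chosen after their values were seen. The members and lists were chosen with earlier results of these data known. Alternatives covered pseudocount, filter, scaling, variance model, Rn45s as covariate, left-out libraries and a block on label numbers.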

Additional observations from a re-analysis of the deposited data

Results flagged for a closer look

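Of 78 groups of values, 39 genes in each genotype, 4 held a library far from the others by Dixon's test of gaps. Chance alone gives about 1 such group in 20. Wild type 1 was the highest for Hadh at 13.262, with the next wild type at 13.103, and for Eci1 at 10.886, with the next at 10.589. Wild type 2 was the highest for Acaa1a at 10.414 (next 10.188) and wild type 4 for Crot at 11.976 (next 11.888). The wide value of Ehhadh in wild type 1 did not pass this test, since the other wild types were spread as well.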

How the results depend on the processing

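Over 23 alternatives, 1 of them chosen after the data were seen, the 18 genes called lower stayed below 0, and 12 of them were called in every one: Cpt1a, Cpt2, Crot, Acadl, Acadm, Acads, Acox3, Scp2, Acaa1a, Acaa1b, Eci3 and Acot12. Hadh, Etfb, Etfdh, Decr1, Ehhadh and Angptl4 were not. The count called lower was 12 without the variance trend, 14 with scaling to the total without Rn45s, and 13 to 18 on leaving out 1 library. The count called higher was 2 with quantile normalization and with Rn45s as a covariate, 0 without the variance trend, 0 without wild type 2 and knockout 4 together, 0 without knockouts 2 and 5 together, and 0 to 1 on leaving out 1 library. Of all genes, 1937 were called, 1426 to 2277 on leaving out 1 library and 1068 without knockouts 2 and 5, where fewer samples were fitted. Scaling moved the share of called genes that were lower from 57.1% to 43.2% (library total), 41.9% (upper quartile) and 35.3% (total without Rn45s, which moved the median of all genes to 0.105); with that last scaling the median of the 39 genes was -0.24. Pairs passing numbered 0 to 5 on leaving out 1 library, and 0 without wild type 2 and knockout 4 or without knockouts 2 and 5. Fewer splits raise the smallest p in all of these fits.

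Label numbers 1 to 4 recur in both genotypes, and the labels used here do not say whether they pair libraries. Deviations of same-numbered libraries correlated at 0.151, 0.000909, -0.00701 and 0.0407 across genes. Wild types 1 and 4 correlated best with the knockout of the same number. Wild type 2 did so with knockout 3, and wild type 3 with knockout 1. These correlations cannot settle whether libraries were paired. With the replicate block, which leaves out knockout 5, 18 genes were called lower, 1 higher and 1739 of all genes; Acot1 gained a call (adjusted p = 0.00377) and Etfb lost its call (0.0754). The cause of the following changes was not tested. Acot2 turned positive with quantile normalization (0.0553), the library total (0.03), the total without Rn45s (0.0767), the upper quartile (0.0469), Rn45s as a covariate (0.1613) and without knockouts 2 and 5 (0.0453). Acox2 turned negative without wild type 2 and knockout 4 (-0.0026), with the replicate block (-0.0125) and without knockouts 2 and 5 (-0.0304), and Decr2 with the replicate block (-0.0377). Pdk4 turned negative with quantile normalization (-0.0217) and without wild type 2 and knockout 4 (-0.3787). On leaving out 1 library, Acot2 ranged from -0.1679 to 0.0701, Acox2 from -0.0565 to 0.1842, Decr2 from -0.0377 to 0.1253, Pdk4 from -0.2985 to 0.4342, Ppargc1a from -0.0391 to 0.1502, and the change in Etfa minus Etfb from -0.0157 to 0.203. None of these was called under any of these settings. Genes not called as reported passed in a few cases: Acot1 without wild type 2 and without knockout 5 (adjusted p = 0.0423 and 0.0465), Eci2 without knockout 1 (0.044), Vnn1 without knockout 3 (0.0423), Acot3 with Rn45s as a covariate (0.0272) and Acaa2 with quantile normalization (0.0373). The pair Crat minus Crot passed without wild type 1 (exact permutation adjusted p = 0.0393). The raw depth is unknown, so counting error could not be separated from other spread.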
